A study of Mus musculus with 22 samples.

Results

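Integrins and laminins are the proteins through which kidney epithelium holds on to its basement membrane. The genes described here are the subunit genes of both families, taken as every row of the count table whose mouse symbol is an integrin alpha or beta chain or a laminin alpha, beta or gamma chain. The table of 32858 genes held 37 of them, 26 integrins and 11 laminins. Levels are given for the 36 genes with at least 10 reads in at least 5 libraries, 25 integrins and 11 laminins, all of which also entered the test across genes. Itgad, a leukocyte integrin alpha chain, had at most 3 reads in any library and is not described further.

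An integrin is a pair of one alpha and one beta chain that spans the cell membrane, and the pair decides which ligand is bound. Itgb1 pairs with most alpha chains, Itgb4 only with Itga6, and Itgav with several beta chains. A laminin is a cross-shaped trimer of one alpha, one beta and one gamma chain, secreted into the basement membrane, and each trimer is named by the numbers of its chains. In kidney, the glomerular basement membrane is known for its laminin with the alpha 5, beta 2 and gamma 1 chains, and laminin with the product of Lama3 is the ligand of the integrin of Itga6 and Itgb4 in hemidesmosomes of epithelia such as skin.

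Polyadenylated RNA was sequenced from whole kidneys of 22 male C57Bl6/J mice aged 8 to 10 weeks. The groups were vehicle (DMSO, cremophor and saline, n = 5), KW6002 alone (n = 6), cisplatin alone (n = 5) and cisplatin with KW6002 (n = 6). KW6002, or istradefylline, is an adenosine receptor antagonist and was injected at 3 mg/kg each day from day -5 to day 7. Cisplatin, a platinum compound that crosslinks DNA and injures the proximal tubule, was injected at 3 mg/kg on 6 days and the kidneys were taken 72 h after the last injection. Mouse numbers in the labels fall into a 300s series, with 3 vehicle and 3 KW6002 mice, and a 500s series with the other 16, so that all mice given cisplatin belong to the second.

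The libraries held 26471762 to 40510754 counted reads, and the 37 genes took 0.272% of them. Markers of kidney cells were all detected. The summed level of 8 proximal tubule markers was 15768 to 16734 CPM (read counts relative to the scaled library size) in vehicle, 15074 to 16386 with KW6002, 1466 to 2799 with cisplatin and 5699.8 to 8940.5 with both. The summed level of 8 markers of injured tubule ran the other way, at 118 to 162, 120.5 to 156, 2385 to 3612 and 1000.2 to 1628 CPM. Of these 8, 7 were higher with cisplatin than in vehicle, while Vim was at 54.1 CPM in vehicle and 55.5 CPM with cisplatin (means). In whole tissue, fewer cells of a type and less RNA per cell cannot be told apart, and this holds for every level given here. Summed podocyte markers lay between 467 and 592 CPM in every library, and summed markers of the adipocyte between 3.20 and 390 CPM, with 131 to 237 CPM in the cisplatin libraries and 3.20 to 87.1 CPM in those of both agents.

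Per kilobase of exon, the scale on which genes can be set side by side, Itgb1 was the highest of the 36 genes in vehicle kidney, at 76.5 ± 6.17 CPM per kb (mean ± SD). It was followed by Itgb5 at 29.5 ± 1.35, Itgb8 at 23.3 ± 5.01, Lamb1 at 22 ± 1.19, Lama5 at 18.5 ± 0.950 and Itgav at 17.6 ± 0.311 CPM per kb. Itgb8 and Lamb1 did not differ beyond their spread, nor did Lama5 and Itgav. In cisplatin kidney, Itgb1 remained the highest at 149 ± 10.7 CPM per kb, then came Lama5 at 53 ± 4.37, Lamb1 at 34.6 ± 1.97, Itga3 at 32.6 ± 5.81 and Itgb5 at 31.6 ± 2.42 CPM per kb. Exon length counts every annotated exon of a gene once, so genes with rarely used exons read low on this scale.

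The first comparison asked how cisplatin alters these genes. Against vehicle, 19 of the 36 were higher and 7 were lower at an adjusted p below 0.05 (edgeR's quasi-likelihood test, adjusted over all 17131 genes tested), where 34.6% of all genes were higher and 35.9% were lower. The median log2 fold change was 0.63 over the 36 genes and -0.01 over all genes. With the stricter call, which asks for a log2 fold change beyond 1 and an adjusted p under 0.01, 12 were higher and 5 were lower, beside 12.1% of all genes in the upward and 12.1% in the downward direction. By family, 13 of 25 integrins and 6 of 11 laminins were higher, and 4 integrins and 3 laminins were lower.

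The second comparison asked what KW6002 does to these genes in mice given cisplatin. With both agents, 5 of the 36 were higher and 21 were lower than with cisplatin alone, beside 28.6% and 27.2% of all genes, and the median log2 fold change was -0.48 against 0.01 over all genes. None met the stricter call upward and 6 met it downward, beside 4.65% and 5.66% of all genes. These 2 comparisons share the cisplatin libraries, so their values are given side by side for each gene.

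**Figure D1:**
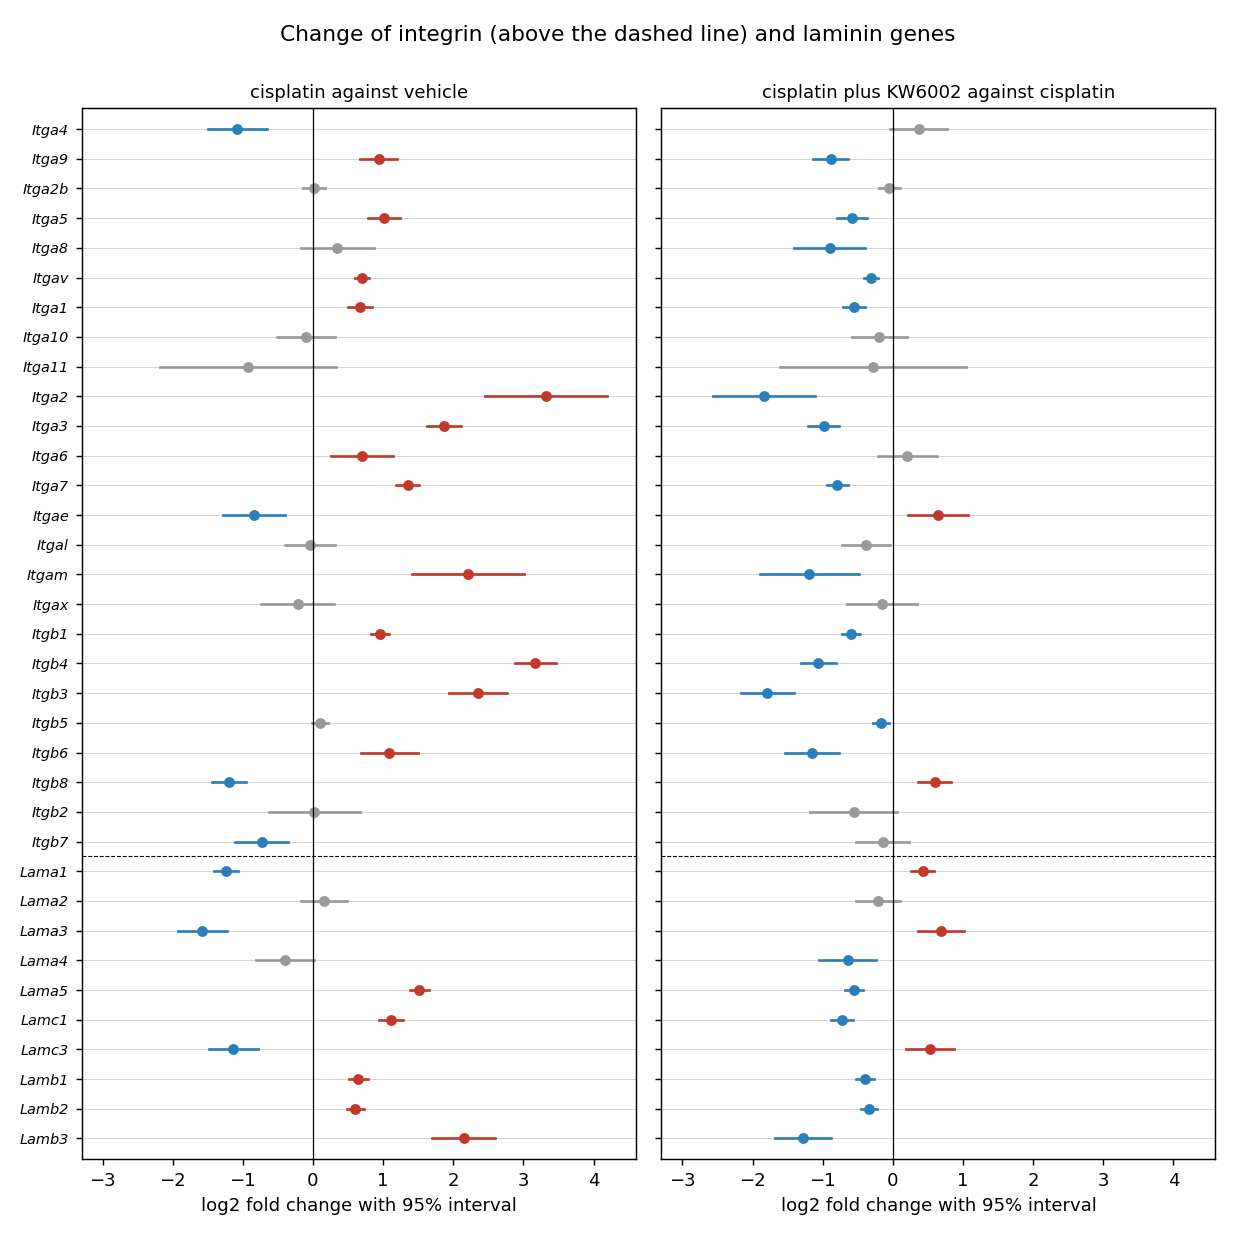
Log2 fold change (x axis) of the subunit genes reported by name (y axis, integrins above the dashed line and laminins below it) for cisplatin against vehicle on the left and for both agents against cisplatin alone on the right; points are estimates, lines are 95% intervals, red passed the test upward, blue downward and grey did not pass. Itga2 and Itgb4 are far to the right on the left side, and Itga2 and Itgb3 farthest to the left on the right side.

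Among the alpha chains that bind collagen, Itga2 changed most. It encodes the collagen-binding chain of epithelia and platelets and lies at chr13:114833081-114932100 (mm10, minus strand), beside Itga1 at chr13:114953096-115101964. Itga2 was near the floor in vehicle kidney, at 1.23, 1.84, 1.65, 1.13 and 0.976 CPM, and in cisplatin kidney it stood at 17.2, 14.1, 13.7, 11.7 and 11.3 CPM. No cisplatin library came near the vehicle range. The log2 fold change was 3.32 ± 0.42, adjusted p = 2.44e-07. With both agents the levels were 1.75 to 11.5 CPM (median 2.34), and against cisplatin alone the log2 fold change was -1.84 ± 0.35, adjusted p = 0.000129. Of the 6 libraries of both agents, 5 lay at or below 2.88 CPM and replicate 1 stood at 11.5 CPM, inside the cisplatin range. With replicate 1 left out, the log2 fold change against cisplatin alone was -2.58 (adjusted p = 5.79e-10) and that against vehicle was 0.74 (adjusted p = 0.00488).

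Itga1, which binds collagen IV and is carried by mesangial, endothelial and smooth muscle cells, was the most abundant of this class per kilobase. Its levels were 141, 128, 152, 165 and 161 CPM in vehicle, 271, 244, 226, 226 and 225 CPM with cisplatin and 137 to 196 CPM (median 157) with both agents. The cisplatin libraries overlapped neither of the other groups, with log2 fold changes of 0.67 ± 0.082, adjusted p = 1.61e-07 against vehicle and -0.55 ± 0.078, adjusted p = 2.95e-06 for both agents against cisplatin. Itga10, known from cartilage, and Itga11, known from fibroblasts, were low, at 1.94 ± 0.509 and 0.478 ± 0.385 CPM in vehicle, and neither passed the test in any comparison.

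The 3 laminin-binding alpha chains were all higher with cisplatin but differed in size. Itga3, the chain of the laminin receptor of podocytes and tubules, stood at 49.2, 44.1, 49.3, 54.2 and 58.6 CPM in vehicle and 229, 189, 192, 186 and 136 CPM with cisplatin (log2 fold change 1.86 ± 0.12, adjusted p = 2.03e-12). With both agents it was at 78.7 to 114 CPM (median 91.8), between the other groups and overlapping neither, and the log2 fold change against cisplatin was -0.99 ± 0.11, adjusted p = 6.86e-08. Itga7, best known as the laminin receptor of muscle, was at 21.2, 20.8, 17.2, 16.4 and 15.2 CPM in vehicle, 45.5, 48.0, 49.1, 47.0 and 41.8 CPM with cisplatin and 24.6 to 29.4 CPM (median 26.6) with both. These groups did not overlap either, with log2 fold changes of 1.35 ± 0.081, adjusted p = 1.05e-12 for cisplatin against vehicle and -0.79 ± 0.075, adjusted p = 9.64e-09 for both agents against cisplatin. An exon of Itga7 overlaps Mettl7b on the other strand, and strand use in the counting is not given in the sources used here.

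Itga6, the alpha chain that pairs with Itgb1 or Itgb4, had no such difference between the cisplatin groups. It was at 132, 92.2, 135, 98.2 and 91.9 CPM in vehicle, 202, 153, 177, 178 and 183 CPM with cisplatin and 186 to 217 CPM (median 209) with both agents. The log2 fold change was 0.70 ± 0.21, adjusted p = 0.00535 for cisplatin against vehicle and 0.91 ± 0.21, adjusted p = 0.000619 for both agents against vehicle. Between both agents and cisplatin alone it was 0.21 ± 0.20, adjusted p = 0.398 (95% interval -0.21 to 0.62). Within the 500s mice, where the KW6002 libraries were less spread, this last value was 0.21 ± 0.070, adjusted p = 0.0165. In KW6002 mice, Itga6 ranged from 163 to 207 CPM in the 300s series and from 74.1 to 94.0 CPM in the 500s series.

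Itga3 and Itga6 thus took different shares of the laminin-binding alpha chains. Counted per kilobase, Itga3 made up 38.6% ± 5.52 (SD) of the 3 chains in vehicle, 55.8% ± 4.38 with cisplatin and 38.5% ± 2.85 with both agents. Itga6 made up 51.7% ± 5.36, 34.3% ± 4.08 and 53.7% ± 2.84 in the same order. The share of Itga7 was 9.69% ± 1.75, 9.92% ± 0.962 and 7.78% ± 0.456. The Itga3 share differed between the mouse series, at 33.4% to 37.7% in 300s vehicle mice and 42.4% and 46.0% in 500s vehicle mice. With KW6002 it was 28.6% to 30.8% and 44.0% to 48.0%. All mice given cisplatin were 500s mice, with 48.4% to 59.1% for cisplatin and 33.8% to 42.1% for both agents. Both agents thus lay below the 2 vehicle libraries of the same series rather than at their level.

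Itgb4, the beta chain of hemidesmosomes, which links Itga6 to keratin filaments through plectin, rose more than any other beta chain measured. It stood at 7.06, 7.38, 6.32, 7.64 and 7.88 CPM in vehicle, 6.15 to 9.04 CPM with KW6002 and 79.7, 61.1, 64.8, 64.7 and 56.4 CPM with cisplatin. The gene lies at chr11:115974709-116008412 (mm10, plus strand) and its log2 fold change was 3.17 ± 0.14, adjusted p = 8.4e-15, a 9.01-fold higher level. With both agents the levels were 23.8 to 40.6 CPM (median 31.3), below every cisplatin library and above every vehicle library. The log2 fold changes were -1.06 ± 0.12, adjusted p = 1.33e-07 against cisplatin and 2.11 ± 0.14, adjusted p = 1.56e-11 against vehicle.

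Itgb1, the common partner of the collagen- and laminin-binding chains, was at 288, 293, 301, 334 and 344 CPM in vehicle and 682, 586, 609, 580.0 and 577 CPM with cisplatin (log2 fold change 0.96 ± 0.062, adjusted p = 4.49e-12). With both agents it stood at 353 to 431 CPM (median 407), again between the other groups without overlap, and -0.60 ± 0.059, adjusted p = 1.79e-08 on the log2 scale against cisplatin.

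**Figure D2:**
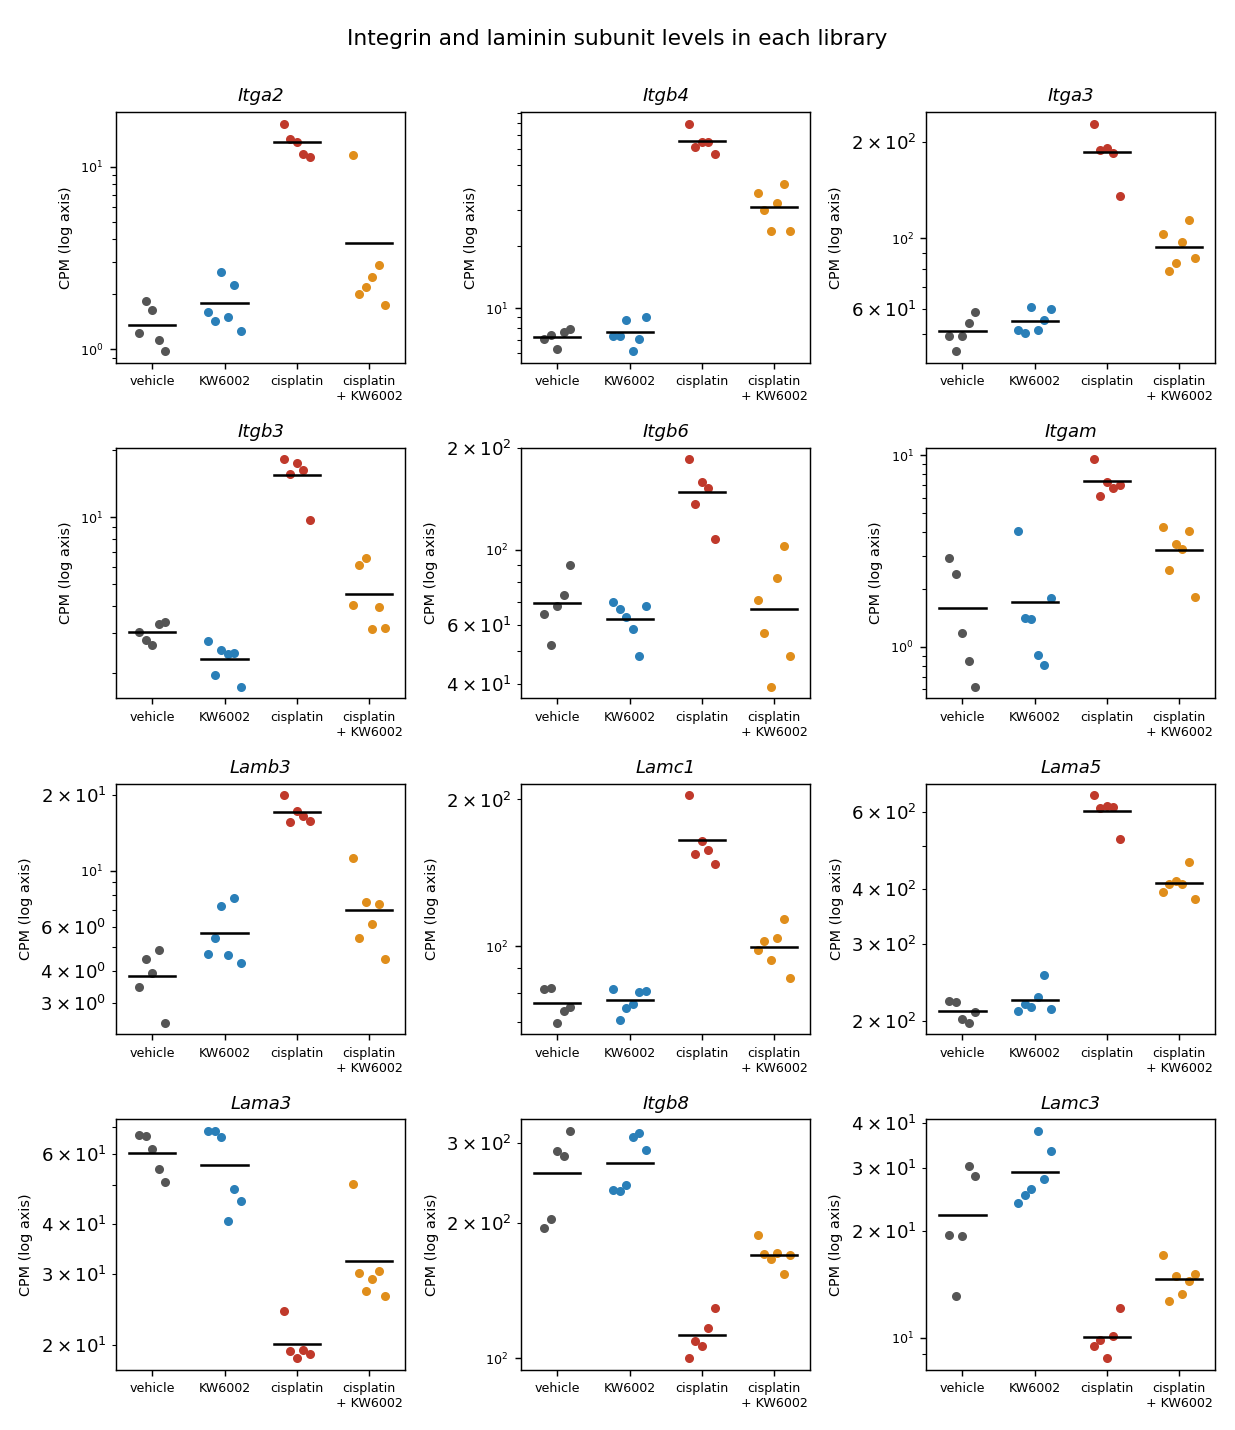
Level in each library (y axis, CPM on a log axis, with its own range in each panel) of 12 genes in the vehicle, KW6002, cisplatin and cisplatin with KW6002 groups (x axis); points are libraries and bars are group means. Of the 6 libraries of both agents, 1 stands apart in Itga2 and in Lama3, at 11.5 and 50.4 CPM.

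The alpha chains that bind the RGD motif of fibronectin, vitronectin and nephronectin did not move together. Itgav, the alpha chain shared by vitronectin receptors and by integrins that activate TGF-beta, was at 188, 195, 186, 189 and 189.8 CPM in vehicle, 325, 305, 301, 305 and 301 CPM with cisplatin and 219 to 277 CPM (median 245) with both agents, and no group overlapped another. Its log2 fold changes were 0.70 ± 0.051, adjusted p = 2.82e-11 for cisplatin against vehicle and -0.32 ± 0.048, adjusted p = 7.92e-06 for both agents against cisplatin. Itga5, the main fibronectin receptor chain, was at 13.3, 11.6, 10.9, 11.9 and 10.6 CPM, 23.1, 23.1, 27.6, 25.8 and 18.1 CPM and 13.5 to 17.3 CPM (median 15.9) in the same 3 groups. The cisplatin libraries lay above both others, with log2 fold changes of 1.01 ± 0.11, adjusted p = 3.07e-08 and -0.58 ± 0.10, adjusted p = 5.99e-05. Itga2b, the platelet fibrinogen receptor chain, stayed between 7.94 and 10.7 CPM in all 22 libraries and passed the test in no comparison.

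Itga8, the nephronectin receptor chain of mesangium and other stromal cells, did not pass the test between cisplatin and vehicle (log2 fold change 0.35 ± 0.25, adjusted p = 0.223) and was lower with both agents than with cisplatin (-0.90 ± 0.24, adjusted p = 0.00312). Its vehicle levels were 15.6, 12.1, 12.0, 29.1 and 27.0 CPM, where the first 3 libraries are from the 300s mice and the last 2 from the 500s. The cisplatin levels were 31.3, 24.8, 23.3, 20.2 and 22.4 CPM, and those with both agents 11.1 to 14.6 CPM (median 13.2). The KW6002 libraries split in the same way, from 13.7 to 15.6 CPM in the 300s mice and from 27.0 to 31.5 CPM in the 500s mice. Within the 500s mice, the log2 fold change was -0.21 ± 0.14, adjusted p = 0.197 for cisplatin against vehicle and -1.10 ± 0.13, adjusted p = 2.76e-06 for both agents against vehicle, where the fit over all mice gave -0.55 ± 0.25, adjusted p = 0.0567. Summed fibroblast and mesangial markers were 271 to 426 CPM in vehicle, 515 to 598 CPM with cisplatin and 329 to 474 CPM with both agents. Of these 8 markers, 4 were higher and 3 lower with cisplatin than in vehicle, beside 34.6% and 35.9% of all genes. With both agents, 0 were higher and 3 lower than with cisplatin, beside 28.6% and 27.2% of all genes. The part of these cells in the result was not tested.

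Besides Itgb1, which also pairs with Itgav, 4 beta chains do so, and they went different ways. Itgb3, the vitronectin receptor chain of endothelium, platelets and osteoclasts, was at 3.04, 2.81, 2.65, 3.31 and 3.38 CPM in vehicle and 18.2, 15.7, 17.6, 16.2 and 9.77 CPM with cisplatin (log2 fold change 2.35 ± 0.20, adjusted p = 4.63e-10). With both agents it stood at 3.13 to 6.59 CPM (median 3.98), below every cisplatin library, and the log2 fold change was -1.79 ± 0.18, adjusted p = 2.74e-08. The only tested marker of 7 platelet markers did not pass in any comparison, and the summed platelet markers were 0.781 to 2.85 CPM in vehicle and 1.16 to 2.04 CPM with cisplatin.

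Itgb6, an epithelial chain known for activating latent TGF-beta, was at 64.6, 52.2, 68.1, 73.3 and 90 CPM in vehicle and 186, 137, 159, 152 and 108 CPM with cisplatin. With both agents it was at 39.2 to 103 CPM (median 63.7). The log2 fold changes were 1.09 ± 0.20, adjusted p = 4.16e-05 for cisplatin against vehicle and -1.15 ± 0.19, adjusted p = 1.99e-05 for both agents against cisplatin. Against vehicle, both agents together gave -0.062 ± 0.19, adjusted p = 0.795 (95% interval -0.46 to 0.33).

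Itgb8, which also presents latent TGF-beta and is abundant in kidney, moved in the opposite direction. Its levels were 194, 204, 288, 281 and 319.9 CPM in vehicle, 99.98, 109.5, 106, 117 and 129 CPM with cisplatin and 154 to 188 CPM (median 170.0) with both agents. Every cisplatin library was below every library of both agents, and these were all below the vehicle libraries. The log2 fold changes were -1.20 ± 0.12, adjusted p = 6.84e-09 for cisplatin against vehicle and 0.60 ± 0.11, adjusted p = 0.000131 for both agents against cisplatin. Itgb5, the vitronectin receptor chain of epithelium, was at 112, 104, 106, 99.5 and 101.8 CPM in vehicle, 119, 121, 108, 113 and 100.02 CPM with cisplatin and 92.0 to 108 CPM (median 98.3) with both agents. These ranges overlapped, and of the 2 comparisons only that of both agents with cisplatin passed, with -0.17 ± 0.055, adjusted p = 0.0103 on the log2 scale beside 0.10 ± 0.058, adjusted p = 0.128 for cisplatin against vehicle.

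Per kilobase, Itgb8 made up 36.6% ± 4.81 of these 4 Itgav partners (Itgb1, shared with many alpha chains, left out) in vehicle, 15.8% ± 2.97 with cisplatin and 28.8% ± 2.19 with both agents. For Itgb6 the shares were 15.4% ± 1.74, 31.8% ± 3.85 and 17.4% ± 5.42. Itgb5 held 47.1% ± 5.84, 48.5% ± 2.22 and 52.4% ± 3.70, while Itgb3 stayed the rarest at 0.820% ± 0.0808, 4.0% ± 0.633 and 1.44% ± 0.524. Between Itgb6 and Itgb8, Itgb8 was thus the more abundant transcript in vehicle and Itgb6 in cisplatin kidney.

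**Figure D3:**
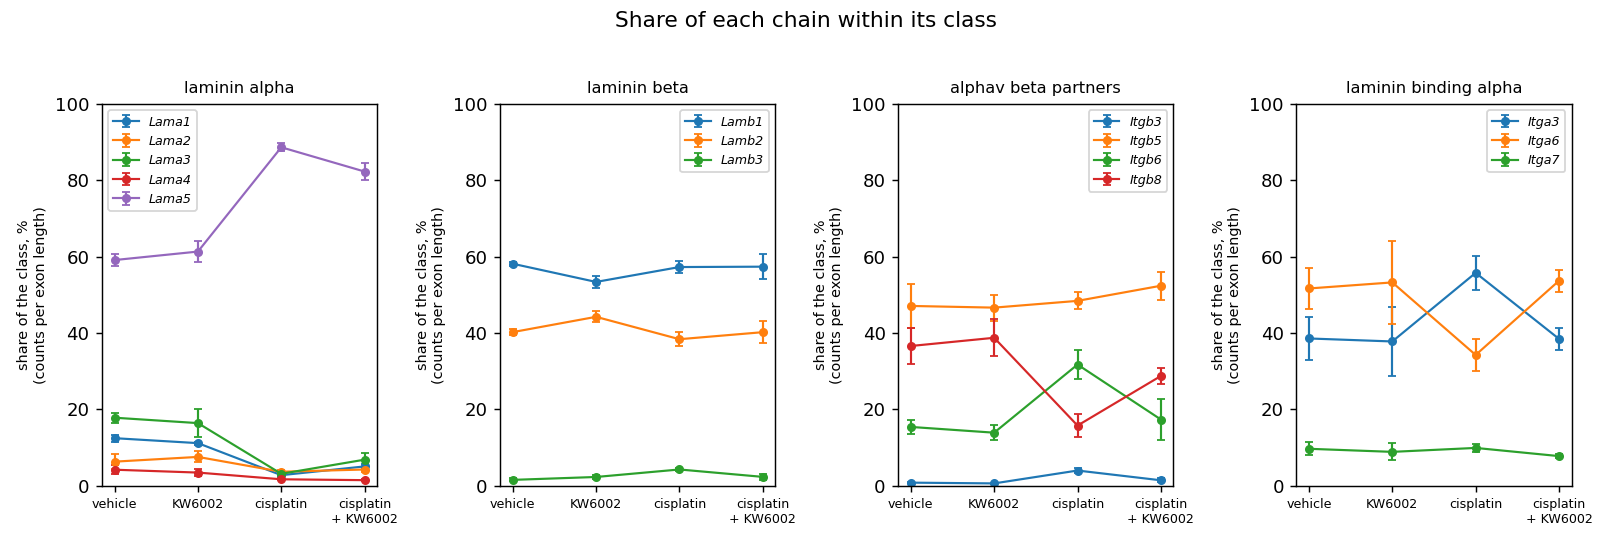
Share of each chain within its class (y axis, percent of counts per exon length) in the 4 groups (x axis) for laminin alpha and beta chains, the beta partners of Itgav other than Itgb1, and the laminin-binding alpha chains; points are group means and bars are SDs over libraries. Lama5 rises from 59.2% to 88.7% of the laminin alpha chains between vehicle and cisplatin.

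Itga9, which binds tenascin and is expressed in smooth muscle and epithelium, was at 16.5, 11.1, 16.3, 19.9 and 19.5 CPM in vehicle, 39.5, 31.2, 32.1, 31.0 and 26.4 CPM with cisplatin and 13.8 to 20.1 CPM (median 17.5) with both agents. The cisplatin libraries lay above both other groups, with log2 fold changes of 0.94 ± 0.13, adjusted p = 7.79e-07 and -0.89 ± 0.12, adjusted p = 1.85e-06. Itga4, its relative on leukocytes that binds Vcam1, was at 8.16, 7.66, 6.02, 4.16 and 4.49 CPM in vehicle and 3.06, 2.46, 2.45, 2.65 and 3.82 CPM with cisplatin (log2 fold change -1.08 ± 0.20, adjusted p = 5.07e-05). Both agents together gave 2.75 to 5.01 CPM (median 3.65), and 0.37 ± 0.19, adjusted p = 0.112 against cisplatin. Within the 500s mice, Itga4 differed by -0.59 ± 0.21, adjusted p = 0.0215 between cisplatin and vehicle.

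The integrins of leukocytes were low in these kidneys and gave mixed results. Itgam, an alpha chain of macrophages and neutrophils, was at 2.91, 2.41, 1.18, 0.845 and 0.618 CPM in vehicle and 9.54, 6.10, 7.27, 6.77 and 7.02 CPM with cisplatin (log2 fold change 2.21 ± 0.38, adjusted p = 2.27e-05). With both agents it was at 1.83 to 4.22 CPM (median 3.34), below all cisplatin libraries (-1.19 ± 0.34, adjusted p = 0.00482). In the 500s mice alone, the log2 fold change of Itgam was 3.32 ± 0.37, adjusted p = 4.47e-07 for cisplatin against vehicle and 2.13 ± 0.37, adjusted p = 0.00013 for both agents against vehicle, beside 1.01 ± 0.38, adjusted p = 0.0243 for the latter over all mice. With the adipocyte markers as a covariate, the difference between both agents and cisplatin did not pass, at -0.41 (adjusted p = 0.343). The summed adipocyte markers did not overlap between these groups, so that fit cannot tell them from the treatment. Itgb2, the partner of Itgam and common to the leukocyte integrins, did not follow, at 17.0, 13.2, 6.79, 4.65 and 5.50 CPM in vehicle and 11, 7.89, 9.46, 8.67 and 10.7 CPM with cisplatin (0.017 ± 0.31, adjusted p = 0.965). Within the 500s mice, the log2 fold change of Itgb2 was 0.90 ± 0.28, adjusted p = 0.0101 for cisplatin against vehicle and -0.56 ± 0.19, adjusted p = 0.0193 for both agents against cisplatin. The vehicle libraries of the 300s mice held the 3 highest Itgb2 levels of their group.

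Itgax, the alpha chain of dendritic cells and some macrophages, lies next to Itgam on chromosome 7. It was at 7.29, 5.29, 5.31, 2.82 and 2.18 CPM in vehicle and 3.78, 3.34, 3.33, 3.99 and 5.27 CPM with cisplatin, and -0.22 ± 0.25, adjusted p = 0.45 on the log2 scale, while within the 500s mice this value was 0.65 ± 0.27, adjusted p = 0.0442. Itgal, the lymphocyte chain, gave -0.042 ± 0.17, adjusted p = 0.842 for cisplatin against vehicle and -0.38 ± 0.17, adjusted p = 0.0563 for both agents against cisplatin, the latter -0.38 ± 0.15, adjusted p = 0.0339 within the 500s mice. Itgae and Itgb7, which form the integrin of intraepithelial T cells, were both lower with cisplatin, by log2 fold changes of -0.84 ± 0.21, adjusted p = 0.0012 and -0.73 ± 0.18, adjusted p = 0.00125. Within the 500s mice neither passed, with -0.56 ± 0.29, adjusted p = 0.0962 and -0.53 ± 0.23, adjusted p = 0.0588.

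The markers of these cells gave mixed counts. Between cisplatin and vehicle, 1 of 8 macrophage markers was higher and 2 were lower, and 2 of 5 neutrophil markers tested were higher and 0 lower. Of 6 T cell markers tested, 1 was higher and 4 were lower, and of 4 B cell markers 0 were higher and 3 lower. Of all genes, 34.6% were higher and 35.9% lower. Summed macrophage markers were 198 to 489 CPM in vehicle, 266 to 383 CPM with cisplatin and 152 to 254 CPM with both agents. Summed T cell markers were 4.33 to 7.93 CPM, 3.06 to 3.72 CPM and 2.28 to 3.36 CPM, and summed neutrophil markers 4.07 to 17.0 CPM, 5.40 to 11.7 CPM and 4.07 to 7.71 CPM. The part of cell numbers in the leukocyte integrins was not tested.

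Among the laminin alpha chains, Lama5 was higher with cisplatin while Lama1 and Lama3 were lower. Lama5, the alpha chain of mature kidney basement membranes, was at 222, 222, 202, 198 and 209.5 CPM in vehicle, 655, 611, 617, 615 and 520.1 CPM with cisplatin and 380.2 to 460.4 CPM (median 411) with both agents, and no group overlapped another. Its log2 fold changes were 1.52 ± 0.066, adjusted p = 5.36e-15 for cisplatin against vehicle and -0.55 ± 0.061, adjusted p = 1.15e-07 for both agents against cisplatin. Lama1, the chain of embryonic basement membranes that adult kidney tubules keep, was at 43.1, 41.4, 36.8, 36.4 and 31.7 CPM, 18.8, 14.1, 15.1, 15.6 and 16.5 CPM and 19.3 to 24.0 CPM (median 20.9). Its cisplatin libraries lay below both other groups, with log2 fold changes of -1.24 ± 0.083, adjusted p = 7.06e-12 and 0.43 ± 0.080, adjusted p = 9.81e-05.

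Lama3, the alpha chain of epithelial anchoring laminin, was at 67.0, 66.3, 61.5, 54.9 and 50.9 CPM in vehicle, 24.4, 19.4, 18.5, 19.5 and 18.9 CPM with cisplatin and 26.4 to 50.4 CPM (median 29.8) with both agents. It was lower with cisplatin, with a log2 fold change of -1.58 ± 0.17, adjusted p = 1.54e-08 over all mice and -1.40 ± 0.18, adjusted p = 2.22e-06 within the 500s mice, and differed by 0.68 ± 0.16, adjusted p = 0.000913 between both agents and cisplatin. In the group of both agents, replicate 1 stood at 50.4 CPM and the others at 26.4 to 30.5 CPM. Without that library the log2 fold change against cisplatin was 0.51 (adjusted p = 0.00196). An exon of Lama3 overlaps a transcript of the other strand, Gm29200.

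Lama4, the chain of vessel walls and adipose tissue, did not pass between cisplatin and vehicle (-0.40 ± 0.20, adjusted p = 0.0785) and was lower with both agents than with cisplatin (-0.64 ± 0.19, adjusted p = 0.00727). Its levels were 16.1 ± 5.21 CPM in vehicle, 12.2 ± 1.26 CPM with cisplatin and 7.78 ± 1.64 CPM with both agents. With the mean log2 level of the 5 adipocyte markers as a covariate, the second value was -0.11 (adjusted p = 0.535). The summed markers did not overlap between the 2 groups (131 to 237 CPM with cisplatin, 3.20 to 87.1 CPM with both agents). This fit therefore cannot tell the markers from the treatment, and their part in the result was not tested. Lama2, the chain of muscle and interstitium, passed in neither, at 0.15 ± 0.16 and -0.22 ± 0.15 on the log2 scale. Per kilobase, Lama5 made up 59.2% ± 1.57 of all laminin alpha chains in vehicle, 88.7% ± 1.11 with cisplatin and 82.3% ± 2.24 with both agents. The shares of Lama3 were 17.8% ± 1.35, 3.14% ± 0.268 and 6.85% ± 1.85, and those of Lama1 12.5% ± 0.878, 2.78% ± 0.330 and 5.08% ± 0.628.

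All 3 laminin beta chains were higher with cisplatin. Lamb3, the beta chain of epithelial anchoring laminin, lies at chr1:193207699-193343878 (mm10, plus strand) and was at 3.47, 4.49, 3.93, 4.86 and 2.51 CPM in vehicle, 4.33 to 7.84 CPM with KW6002 and 20, 15.6, 17.3, 16.6 and 15.8 CPM with cisplatin. The log2 fold change for cisplatin against vehicle was 2.15 ± 0.22, adjusted p = 6.69e-09. With both agents it was at 4.47 to 11.3 CPM (median 6.76), lower than every cisplatin library, and the log2 fold change was -1.28 ± 0.19, adjusted p = 7.2e-06. Lamb1, the most abundant beta chain, was at 227, 202, 211, 229.9 and 223 CPM in vehicle, 377, 341, 334, 331 and 331 CPM with cisplatin and 228 to 299 CPM (median 249) with both agents. The cisplatin libraries lay above both other groups, with log2 fold changes of 0.65 ± 0.065, adjusted p = 7.02e-09 and -0.40 ± 0.062, adjusted p = 9.6e-06. Lamb2, the beta chain of the glomerular basement membrane, changed by 0.60 ± 0.058, adjusted p = 3.72e-09 and -0.34 ± 0.055, adjusted p = 1.64e-05. Lamb1 kept a share of 58.2% ± 0.559 of the beta chains per kilobase in vehicle and 57.3% ± 1.65 with cisplatin.

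Lamc1, the gamma chain shared by most laminins, lies at chr1:153218922-153332786 (mm10, minus strand) and was at 81.8, 82.0, 69.6, 73.4 and 75.1 CPM in vehicle, 204, 154, 164, 157 and 147 CPM with cisplatin and 86.0 to 113 CPM (median 100.29) with both agents, without overlap between these groups. Its log2 fold changes were 1.11 ± 0.080, adjusted p = 2.63e-11 and -0.73 ± 0.076, adjusted p = 3.77e-08.

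Lamc3, a gamma chain of vessels and peripheral tissues, was at 19.4, 13.1, 19.3, 30.3 and 28.4 CPM in vehicle, 9.48, 9.87, 8.77, 10.1 and 12.1 CPM with cisplatin and 12.7 to 17.1 CPM (median 14.7) with both agents. It was lower with cisplatin, by a log2 fold change of -1.13 ± 0.17, adjusted p = 3.47e-06, and differed by 0.53 ± 0.17, adjusted p = 0.00869 between both agents and cisplatin. The second value did not pass with the adipocyte markers as a covariate, at 0.42 (adjusted p = 0.0923). Here too the summed adipocyte markers did not overlap between the groups, so the fit cannot tell them from the treatment.

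The third comparison asked what KW6002 does without cisplatin. None of the 36 passed in either direction with edgeR or with DESeq2, beside 0.0175% of all genes higher and 0% lower, and 3 of the 36 and 1930 of all genes tested had an unadjusted p below 0.05. Those 3, named after their values were seen, were Lamb3 at 0.57 ± 0.21, adjusted p = 0.324, Lamc3 at 0.40 ± 0.16, adjusted p = 0.347 and Lamb1 at -0.14 ± 0.062, adjusted p = 0.379 on the log2 scale. The 95% interval was -0.22 to 0.35 for Itgb4 and -0.50 to 1.27 for Itga2, both among the genes that changed most with cisplatin.

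Kidneys of mice given both agents still differed from vehicle kidneys. Of the 36 genes, 16 were higher and 8 were lower, beside 29.8% and 29.9% of all genes. Among those higher were Itgb4 (2.11 ± 0.14 on the log2 scale) and Itga2 (1.48 ± 0.41), and among those lower were Lama4 (-1.04 ± 0.19), Lama3 (-0.89 ± 0.15) and Itgb7 (-0.88 ± 0.18). Itga9 gave 0.055 ± 0.12, adjusted p = 0.722 and Itga1 0.12 ± 0.079, adjusted p = 0.203.

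Whether KW6002 acted differently in cisplatin-treated and untreated mice was tested as an interaction. For 3 of the 36 genes it was positive and for 20 negative at an adjusted p below 0.05, beside 22.8% and 19.9% of all genes. With the stricter call, 0 were positive and 7 were negative, beside 4.24% and 4.33% of all genes. The positive ones were Lama3 at 0.77 ± 0.22, adjusted p = 0.007, Lama1 at 0.56 ± 0.11, adjusted p = 0.000336 and Itgb8 at 0.52 ± 0.16, adjusted p = 0.012.

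Genes whose products act beside these subunits were read from lists of basement membrane partners, other integrin ligands, integrin adaptors in the cell and laminin receptors that are not integrins. Of 22 basement membrane partners, 16 were higher and 5 lower with cisplatin than in vehicle, beside 34.6% and 35.9% of all genes. With both agents, 3 were higher and 15 lower than with cisplatin, beside 28.6% and 27.2% of all genes. Col18a1, a basement membrane collagen that releases endostatin, was at 214 ± 26.7 CPM in vehicle, 1015 ± 75.5 CPM with cisplatin and 422 ± 46.3 CPM with both agents, with log2 fold changes of 2.25 ± 0.093, adjusted p = 2.77e-15 and -1.27 ± 0.085, adjusted p = 6.03e-11. Fras1, which joins epithelium to the dermis and the ureteric bud to its mesenchyme, was at 64.1 ± 11.2, 18.4 ± 1.95 and 30.9 ± 3.16 CPM. Nid1, which bridges laminin and collagen IV, was at 81.2 ± 13.8, 207 ± 30.6 and 88.6 ± 11.7 CPM. Tinagl1, a matrix protein that binds integrins, rose by 1.86 ± 0.16, adjusted p = 7.6e-10 with cisplatin and Col4a3, a chain of glomerular collagen IV, fell (-0.99 ± 0.11, adjusted p = 2.74e-08). Ntn4, a netrin that binds laminin gamma chains, was higher with both agents than with cisplatin (0.47 ± 0.090, adjusted p = 0.000128).

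Of 32 other integrin ligands tested, 23 were higher and 3 lower with cisplatin, beside 34.6% and 35.9% of all genes. With both agents, 1 was higher and 22 lower than with cisplatin, beside 28.6% and 27.2% of all genes. The fibrinogen chains Fgg and Fgb, ligands of the integrins of Itga2b, Itgav and Itgam, were among those higher with cisplatin. Their log2 fold changes were 5.44 ± 0.26, adjusted p = 1.99e-14 and 5.28 ± 0.35, adjusted p = 5.19e-12. Fgg was at 11.9 ± 2.75 CPM in vehicle, 516 ± 80.8 CPM with cisplatin and 209 ± 64.6 CPM with both agents. Ccn1, a matricellular ligand of Itgav integrins, was at 20.7 ± 5.34, 206 ± 48.4 and 62.4 ± 26.1 CPM, and Tnc, the tenascin bound by Itga9, at 8.74 ± 2.92, 45.4 ± 12.4 and 14.6 ± 5.18 CPM. Their log2 fold changes for both agents against cisplatin were -1.73 ± 0.23, adjusted p = 1.3e-06 and -1.64 ± 0.24, adjusted p = 4.32e-06. The junctional ligands Jam3 (-0.86 ± 0.15, adjusted p = 1.88e-05) and Icam2 (-0.67 ± 0.10, adjusted p = 4.8e-06) were lower with cisplatin, and Tnxb, a tenascin of loose connective tissue, was the single ligand higher with both agents than with cisplatin (0.27 ± 0.11, adjusted p = 0.0474), a call that DESeq2 did not make.

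Of 40 adaptors, 22 were higher and 7 lower with cisplatin, beside 34.6% and 35.9% of all genes. With both agents, 6 were higher and 19 lower than with cisplatin, beside 28.6% and 27.2% of all genes. Tln2, one of the talins that switch integrins on, was at 297 ± 23.2 CPM in vehicle, 52.3 ± 6.06 CPM with cisplatin and 140.2 ± 14.5 CPM with both agents (-2.51 ± 0.081, adjusted p = 5.03e-17 and 1.42 ± 0.076, adjusted p = 2.57e-12 on the log2 scale). Actn1, an actin crosslinker of focal adhesions, was at 41.9 ± 5.48, 183 ± 25.7 and 71.3 ± 11 CPM. Plec, which encodes the plectin that ties Itgb4 to keratin, rose with cisplatin (1.05 ± 0.082, adjusted p = 1.16e-10), and Dab2, an endocytic adaptor abundant in proximal tubule, fell (-0.60 ± 0.075, adjusted p = 2.1e-07). Vcl, the vinculin that binds talin, was lower with both agents than with cisplatin (-0.63 ± 0.11, adjusted p = 5.78e-05), and the tensin Tns1 higher (0.56 ± 0.089, adjusted p = 1.42e-05).

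Of 18 other laminin receptors and their glycosylating enzymes, 10 were higher and 5 lower with cisplatin, beside 34.6% and 35.9% of all genes. With both agents, 2 were higher and 12 lower than with cisplatin, beside 28.6% and 27.2% of all genes. Sdc1, an epithelial heparan sulfate proteoglycan, was at 12.2 ± 1.95 CPM in vehicle, 69.0 ± 5.65 CPM with cisplatin and 45.7 ± 1.68 CPM with both agents (2.5 ± 0.086, adjusted p = 1.64e-16 and -0.60 ± 0.076, adjusted p = 7.18e-07 on the log2 scale). Bcam, the Lutheran antigen that binds the product of Lama5, was at 125 ± 23.3, 469 ± 57.3 and 285 ± 36.4 CPM. Sdc2, another heparan sulfate proteoglycan, was lower with cisplatin (-1.38 ± 0.087, adjusted p = 2.37e-12). Pomgnt1, an enzyme that helps glycosylate dystroglycan for laminin binding, was higher with both agents than with cisplatin (0.14 ± 0.043, adjusted p = 0.0105).

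**Figure D4:**
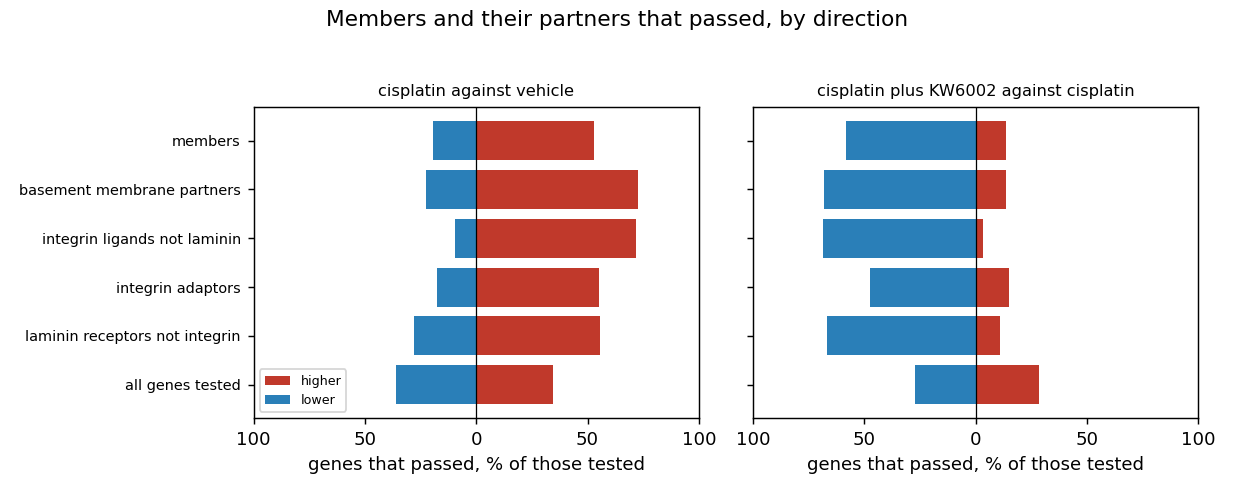
Percent of genes tested that were higher (right, red) or lower (left, blue) at an adjusted p below 0.05 (x axis) in the 36 subunit genes, the 4 partner lists and all genes (y axis), for cisplatin against vehicle and for both agents against cisplatin. Of all genes, 34.6% and 35.9% were higher and lower in the first comparison, beside 23 and 3 of 32 integrin ligands. In the second they were 28.6% and 27.2%, beside 1 and 22 of the 32 ligands.

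Promoter sequence was read for subunit genes whether or not they changed, since shared letters would be a further feature in common. RefSeq windows of 300 bases (GRCm38.p6, from 250 before to 50 after the annotated start) were read for 23 of the 36 genes in 26 windows. They were searched on both strands for the AP-1 site TGANTCA, the TEAD site GGAATG and the p53 half-site. AP-1 letters were in 3 windows (11.5%), beside 7.81% of all 32851 windows. TEAD letters were in 3 windows (11.5%, beside 14.7% of all) and a p53 half-site in 1 (3.85%, beside 8.36%). The motifs were chosen with the results known, and a match is a string of letters, not a bound site. Of the 10 windows of genes with the stricter call upward in cisplatin, 1 had AP-1 letters and 1 had TEAD letters. The matches in genes that rose with cisplatin are shown with 30 bases of the gene's strand and the motif in capitals, for Itga3 at chr11:95069168-95069197 (minus strand), Itga9 at chr9:118711712-118711741 and chr9:118711496-118711525, Itgb1 at chr8:128685635-128685664 and Lamb3 at chr1:193302064-193302093 (plus strand).
Itga3, AP-1: gggctggtgccTGAATCActggcttgctca
Itga9, AP-1: ttgatttgcagactggtcTGACTCAaggag
Itga9, p53 half-site: ggagagaaacAAGCATGCCCaggaattccg
Itgb1, TEAD: acgcggcgcggaGGAATGcgtttccggagg
Lamb3, TEAD: gaggggaccccaCATTCCcagggagctctc
Itga3 and Lamb3 each have a second annotated start whose window held none of the 3 motifs, and no motif was shared by most of the genes.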

How the data were processed

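Kidney RNA libraries (TruSeq Stranded mRNA) of 22 mice were sequenced with single reads of 50 bases. Per the submitters' processing notes, bcl2fastq 2.17.1.14, STAR and HTSeq 0.6.1p1 were used with mm10. The methods state that uniquely mapped reads were counted in union mode, and strand use in counting is not given in the sources used here. The deposited table holds raw counts per Ensembl gene, which the authors had not normalized, and 66 unnamed empty columns. Exons overlap another gene on the same strand in Itga1, Itga10 and Itgam and on the other strand in Itga4, Itga7, Itga8, Itgav, Itgb4, Lama2, Lama3 and Lamc3, so their counts are less certain. Groups follow the labels. Each library comes from a separate mouse.

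Counts were tested with edgeR 4.0.16 in R 4.3.3 (TMM, filterByExpr, quasi-likelihood test, 1 mean per group over all libraries), with Benjamini-Hochberg adjustment over 17131 genes. A gene passed at an adjusted p below 0.05. CPM are on TMM-scaled library sizes, and lengths and positions are from the GENCODE annotation of GRCm38. Values in every library were given for genes that met the stricter call (a log2 fold change beyond 1 and an adjusted p under 0.01) in the cisplatin or co-treatment comparison, and for the gene of each class with the highest level per length in vehicle. Of each partner list, the 2 genes that changed most in each direction, kept to averages of 2 or more in log2 CPM, were named. Some genes of these lists are counted but not reported by name here. Members, classes and lists were chosen with earlier results of these data known. DESeq2 1.42.0, other scalings, filters, covariates and thresholds, and leaving out each library, were alternatives. Scripts were tested on simulated data.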

Additional observations from a re-analysis of the deposited data

Results flagged for a closer look

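For 7 of the 36 genes the KW6002 effect differed between mice with and without cisplatin by more than 1 on the log2 scale, with an adjusted p under 0.01, and all 7 were more negative with cisplatin. Among them, the log2 difference was -2.23 for Itga2, -1.85 for Lamb3, -1.40 for Itgb3, -1.13 for Itgb4, -1.09 for Itga3 and -1.08 for Itga9 (interaction term, edgeR). Without replicate 1 of both agents, the value of Itga2 was -2.97 (adjusted p = 6.5e-08). Within the 500s mice, the interaction was -2.52 (adjusted p = 0.0322) for Itga2, -1.89 (adjusted p = 0.0018) for Lamb3 and -1.19 (adjusted p = 0.0281) for Itgb3. It was -0.99 (adjusted p = 0.00892) for Itgb4, -0.96 (adjusted p = 0.00172) for Itga3 and -0.84 (adjusted p = 0.00222) for Itga9. Of these named genes, only Lamb3 met both limits in that fit, where vehicle had 2 libraries.

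Of 144 groups of 5 or 6 libraries, 11 held a library that stood apart from the rest by Dixon's test, where chance gives about 1 in 20, or 7.2. In the group of both agents, replicate 1 was high in Itga2 (11.5 CPM, the others 1.75 to 2.88) and in Lama3 (50.4 CPM, the others 26.4 to 30.5). In the cisplatin group, replicate 1 was high in Itgav (325 CPM, the others 301 to 305), Lama3 (24.4 CPM, the others 18.5 to 19.5) and Lamb1 (377 CPM, the others 331 to 341). In the KW6002 group, replicate 1 was high in Itgam (4.01 CPM, the others 0.809 to 1.80) and Lama4 (20.7 CPM, the others 9.66 to 13.8), and replicate 5 in Lama1 (38.0 CPM, the others 33.3 to 34.7) and Lama5 (255 CPM, the others 211 to 227). Low KW6002 libraries were replicate 6 in Itga7 (15.8 CPM, the others 18.4 to 19.6) and replicate 2 in Itgb1 (300.0 CPM, the others 320.4 to 331).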

How the results depend on the processing

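Of 3145 recomputed values of the 99 log2 fold changes that passed, 3103 kept their direction and their side of the threshold, 41 no longer passed and 1 reversed. Most of these runs left out a single library, often from a group outside the comparison, where the value can barely move. The total therefore says little on its own. Within the 500s mice, 91 of the 99 were kept and 8 no longer passed. The reversal was Itgal for both agents against vehicle, 0.016 (adjusted p = 0.947) with the adipocyte markers as a covariate, and the cause was not tested. The counts of genes that passed moved by over 1.5 times only with another threshold. With the stricter call (a log2 fold change beyond 1 and an adjusted p under 0.01), cisplatin against vehicle had 12 higher, beside 12.1% of all genes. Both agents against cisplatin had 0 higher and 6 lower, beside 4.65% and 5.66%. Both agents against vehicle had 3 higher and 1 lower, beside 999 and 1301 of all 17131 genes. The interaction had 0 positive and 7 negative, beside 4.24% and 4.33%. Tested against a log2 fold change of 1, the counts in the same order were 9 higher and 2 lower, 0 higher and 1 lower, 2 higher and 0 lower, and 0 positive and 1 negative. These thresholds admit fewer genes by construction. Shares of all genes are not given for the test against 1 nor for the runs that leave out a library. Those counts describe only the subunit genes. Leaving out each library in turn gave 19 to 20 higher and 7 to 8 lower for cisplatin against vehicle, 5 to 6 higher and 21 to 22 lower for both agents against cisplatin, 15 to 16 higher and 7 to 9 lower for both agents against vehicle, and 3 to 4 positive and 19 to 21 negative interactions. For both agents against vehicle, the calls of Itgb3 (0.56), Itgam (1.01) and Itgal (-0.42) were lost without a single library: for Itgb3 replicate 2 (0.45, adjusted p = 0.0536) or 3 (0.42, adjusted p = 0.0578) of both agents, for Itgam vehicle replicate 3, 4 or 5 (adjusted p = 0.058 to 0.0714; within the 500s mice Itgam passed, at 2.13, adjusted p = 0.00013), and for Itgal vehicle replicate 1 or 2 or replicate 2, 4 or 6 of both agents (adjusted p = 0.0739 to 0.118). In that comparison within the 500s mice, Itgb3 (0.42, adjusted p = 0.251) and Itgal (-0.041, adjusted p = 0.886) did not pass. Neither did Itga4 (-0.22, adjusted p = 0.404) nor Lamb1 (0.19, adjusted p = 0.0829). The interaction of Itgam (-1.33, adjusted p = 0.0411) was lost without any 1 of 11 libraries, the value nearest 0 being -0.87 (adjusted p = 0.123) without KW6002 replicate 1. KW6002 against vehicle stayed at 0 in every alternative run.

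Replicate numbers did not pair the libraries (31 same-numbered pairs, correlations of deviations from -0.175 to 0.405, median 0.0085), and with the replicate block the counts were 19 higher and 7 lower, then 5 and 21, 16 and 8, and 3 and 21. Within the 500s mice they were 21 and 5, 6 and 23, 14 and 8, and 4 and 21, where vehicle had 2 libraries. The shares of all genes in these runs are not given, so the counts describe only the subunit genes. Library size without further scaling moved the median of all genes by 0.20 on the log2 scale in cisplatin against vehicle and raised the share of higher calls among all calls to 65.8%, with 23 and 7 of the 36 genes. Shares of chains rest on division by exon length. The counts for genes at a few CPM, such as Itga11 and Itgae, limit what could be detected for them.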

Other observations

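In some of these genes, named below, the libraries of the 300s and 500s mice did not overlap within vehicle nor within KW6002. They lay the same way round in both groups. How many of all genes separate in this way was not counted, so the split is not read as particular to these genes. Itga8 was at 12.0 to 15.6 CPM in 300s vehicle mice and 27.0 to 29.1 CPM in 500s vehicle mice, and at 13.7 to 15.6 and 27.0 to 31.5 CPM with KW6002. Lamc3 was lower in the 300s mice as well, at 13.1 to 19.4 against 28.4 to 30.3 CPM in vehicle and 24.0 to 26.1 against 28.0 to 38.1 CPM with KW6002, as were Lama2 and Itgb1. Lama3 was higher in the 300s mice, at 61.5 to 67.0 against 50.9 to 54.9 CPM in vehicle and 66.2 to 68.4 against 40.7 to 49.1 CPM with KW6002. These genes were singled out after their values were seen, and what else differed between the mouse series is not given by the labels.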
